A study of Mus musculus with 8 samples.

Results

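A set of 10 heat shock chaperones is described here in the livers of wild-type mice and of mice lacking Btg2, in fasted adults and in fetuses. Their probes were found by matching the accession that the array design gives for each probe to RefSeq genes (assembly GRCm38.p6). Of the 10 chaperones listed, 9 had a named probe, and Hspa1b had none. They were read by 14 of the 55681 probes on the array and were 9 of 20284 named genes. By their textbook roles, 6 are cytosolic chaperones induced by heat (Hspa1a, Hspa1b, Hspb1, Dnajb1, Hsph1 and Hsp90aa1), 2 are cytosolic chaperones made constitutively (Hspa8 and Hsp90ab1) and 2 form the mitochondrial chaperonin (Hspd1 and Hspe1).

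The study compared the liver transcriptomes of wild-type and Btg2-knockout C57BL/6J mice, and its title names the response to starvation. Btg2, called TIS21 in the labels, encodes a growth-restraining protein of the BTG/TOB family. In all, 4 RNA samples were profiled. The adult wild-type and adult knockout samples came from livers of 10-week-old males after a fast of 20 h. The number of mice behind each is not stated in the labels. The fetal wild-type and fetal knockout samples came from livers of embryonic day 13.5 and were each a pool of more than 3 fetuses of a womb, male and female together. No fed adults were analysed. The labels do not say where else in the body Btg2 was lost. Each sample was measured in technical duplicate, so a group is 1 RNA sample read on 2 arrays. No difference between samples could be tested against animal variation. Values are therefore given for each array, a difference is the difference of the means of 2 arrays, and "called" means a difference of at least 2-fold.

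Chaperones of the heat shock response hold and refold unfolded proteins. HSP70 proteins bind exposed hydrophobic stretches, J-domain proteins such as Dnajb1 deliver clients and stimulate the ATPase, and HSP110 proteins such as Hsph1 release the nucleotide. Small heat shock proteins hold clients without ATP, HSP90 completes the folding of kinases and receptors, and Hspd1 with its lid Hspe1 folds proteins imported into mitochondria. Under stress, trimers of the transcription factor HSF1 bind heat shock elements, which are alternating inverted repeats of the unit GAA, and raise the inducible genes. Hspa8 and Hsp90ab1 are abundant without stress.

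The promoter windows of 4 members are shown because they display how the arrangement of heat shock element units differs between genes whose values are given below. Sequences are from RefSeq, assembly GRCm38.p6, and run 5′ to 3′ on the gene's strand from 250 bases before to 50 bases after the start of the gene. Capitals mark each match to GAANNTTC or TTCNNGAA, the forms of 2 facing units. Both motifs read the same on either strand. The windows lie at chr17:34972107-34972406 on the minus strand for Hspa1a, chr5:135887669-135887968 on the plus strand for Hspb1, chr5:149636287-149636586 on the minus strand for Hsph1 and chr1:55087898-55088197 on the plus strand for Hspe1.
Hspa1a: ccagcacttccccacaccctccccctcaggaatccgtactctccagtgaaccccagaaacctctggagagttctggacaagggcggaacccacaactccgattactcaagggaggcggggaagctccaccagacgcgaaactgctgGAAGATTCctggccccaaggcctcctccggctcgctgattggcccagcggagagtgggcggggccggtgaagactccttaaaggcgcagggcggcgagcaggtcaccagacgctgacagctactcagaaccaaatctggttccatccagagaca
Hspb1: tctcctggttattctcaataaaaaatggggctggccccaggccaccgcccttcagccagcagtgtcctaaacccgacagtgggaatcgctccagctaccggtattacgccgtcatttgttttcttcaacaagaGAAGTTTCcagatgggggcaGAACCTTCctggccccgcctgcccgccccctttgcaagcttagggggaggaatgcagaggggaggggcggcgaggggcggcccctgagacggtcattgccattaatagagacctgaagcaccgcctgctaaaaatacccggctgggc
Hsph1: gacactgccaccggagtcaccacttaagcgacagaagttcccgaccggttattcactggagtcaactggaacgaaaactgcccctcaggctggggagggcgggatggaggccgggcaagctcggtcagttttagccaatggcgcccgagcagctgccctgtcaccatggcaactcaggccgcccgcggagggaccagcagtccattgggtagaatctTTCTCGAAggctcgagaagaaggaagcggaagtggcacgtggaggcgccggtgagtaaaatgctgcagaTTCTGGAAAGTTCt
Hspe1: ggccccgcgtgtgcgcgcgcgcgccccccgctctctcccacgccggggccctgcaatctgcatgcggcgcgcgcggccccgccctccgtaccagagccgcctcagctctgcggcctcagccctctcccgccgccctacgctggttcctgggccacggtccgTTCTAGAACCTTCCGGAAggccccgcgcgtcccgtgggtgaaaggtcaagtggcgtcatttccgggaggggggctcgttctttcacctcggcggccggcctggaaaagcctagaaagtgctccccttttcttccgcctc

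In Hspa1a the match GAAGATTC lay at −104 to −97 from the gene's start. The Hspa1b window was equal to it at 296 of 300 bases and held the same match at the same place. Hspb1 held 2 separate matches, GAAGTTTC at −117 to −110 and GAACCTTC at −97 to −90. The Hsph1 window shown held TTCTCGAA at −33 to −26 and a run of 3 units after its start, at 37 to 49. Another Hsph1 window, counted from a different start, held the same matches at −54 to −47 and 16 to 28. The Hspe1 window held overlapping 3-unit matches between −89 and −72. It shared 285 bases with a window of Hspd1, the gene that faces it on the other strand, and that window held the same stretch in reverse.

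RefSeq windows were found for 7 of the 10 members, and Hspa8, Hsp90aa1 and Hsp90ab1 were not matched. Of these 7, 6 held a match of 2 units and 3 (Hspd1, Hspe1 and Hsph1) held a match of 3 units, GAANNTTCNNGAA or TTCNNGAANNTTC, which includes overlapping 2-unit matches. The 2 windows of Dnajb1 held none. Over all 32851 windows of 300 bases, from 27025 genes, GAANNTTC was found in 7.86%, TTCNNGAA in 8.52%, either in 15.1% and a 3-unit match in 0.603%. These are shares of single windows, whereas a member was counted if any of its windows held a match. The members had 10 windows, some of them overlapping or nearly alike. A match describes letters in the window and is no evidence of binding.

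All 14 probes were well above background on all 8 arrays, and none was saturated or flagged as an outlier. The arrays lay on 1 slide, and their 75th percentiles of processed signal ran from 132 to 171 for adults and from 278 to 334 for fetal pools. Values below are log2 of the processed signal divided by that percentile of the array, so a value of 0 is the 75th percentile itself. Over the 14 probes the gap between duplicate arrays had a median of 0.05 and reached 0.45. Btg2 itself read 149 and 158 in wild-type adults, 6.26 and 8.02 in knockout adults, 2071 and 2080 in wild-type fetuses and 4.54 and 5.14 in knockout fetuses, as processed signal. It was not well above background in either knockout sample, giving bounds of at least 7.62-fold lower for adults and at least 98.1-fold for fetal pools. Hepatocyte markers were above background on all arrays except Cps1, which was dim on 3 fetal arrays. Their summed scaled signal over 8 genes was 6389 to 6536 in wild-type adults, 5502 to 5603 in knockout adults, 1050 to 1066 in wild-type fetuses and 1074 to 1086 in knockout fetuses.

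In fasted adult liver, all 9 measured chaperones read lower in the knockout sample than in wild type. On each of the 14 probes, both knockout arrays lay below both wild-type arrays. Among all 14578 genes tested, 46.6% had that arrangement, and 58.6% lay below 0. Called lower were 2 of the 9, Hspa1a and Hspb1, where 3.38% of all genes were called lower and 5.23% higher. The median difference over the 9 was −0.74, against −0.10 over all genes tested.

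**Figure D1:**
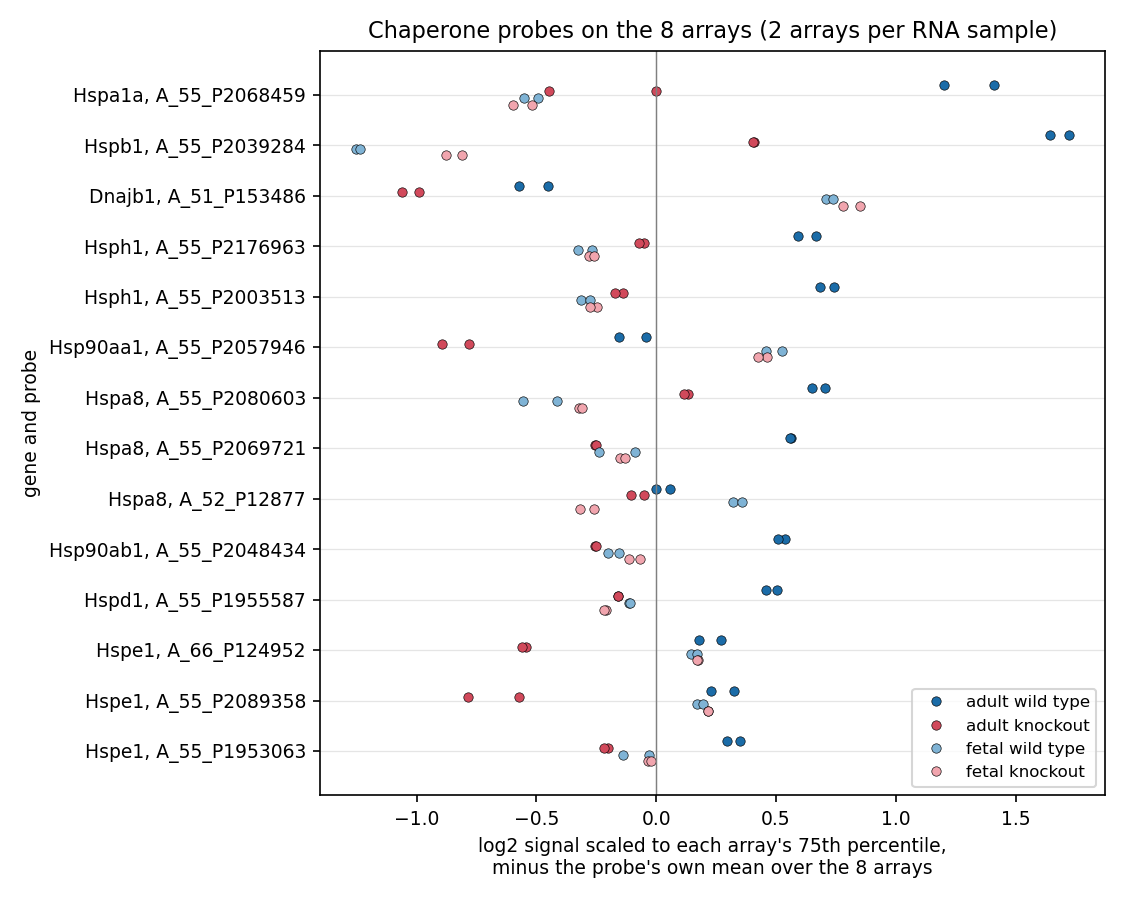
Scaled log2 signal of the 14 chaperone probes on the 8 arrays, each probe centred on its own mean so that only differences within a probe can be read. Each point is 1 array, 2 per RNA sample. On every probe both adult knockout points lie left of both adult wild-type points. On most probes the fetal pairs lie close together, while on Hspa8 probe A_52_P12877 the fetal knockout lies 0.63 below the fetal wild type.

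The inducible HSP70 gene Hspa1a read −0.76 and −0.55 in wild-type adults and −1.96 and −2.41 in knockout adults. On the fetal arrays it read −2.51 and −2.45 in wild type and −2.55 and −2.48 in knockout. Adult wild type thus stood alone at the top, and the fetal samples overlapped. The adult genotype difference was −1.53, or 2.89-fold lower in the knockout, and the fetal one was −0.03. Hspa1a was the dimmest member: its processed signals ran from 32.0 to 90.6, where the lowest signals called well above background in adult knockout were 22.7 and 29.3. With a background correction that models noise and adds an offset of 50 (normexp), the adult difference was −0.73, below 2-fold. Hspa1b is a nearly identical gene, and whether this probe also reads its RNA was not tested.

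Hspb1, the small heat shock protein known as HSP25 or HSP27, read 6.81 and 6.73 in adult wild type and 5.50 and 5.49 in adult knockout. In the fetal pools it read 3.84 and 3.85 without and 4.21 and 4.28 with the knockout. No samples overlapped, and the genotype difference ran in opposite directions at the 2 stages. The knockout was 2.42-fold lower in the adult (difference −1.28) and 1.32-fold higher in the fetus (0.40). Among the 498 genes with a mean level between 5 and 6, the median difference was −0.25 in the adult and 0.06 in the fetus. The adult difference was −1.08 or further from 0 under the other settings tried, and −0.92 without any scaling of the arrays.

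The cochaperones of HSP70 differed less. Dnajb1, the J-domain protein HSP40, read 4.15 and 4.03 in wild-type adults, 3.61 and 3.54 in knockout adults, 5.31 and 5.34 in wild-type fetuses and 5.38 and 5.46 in knockout fetuses. Unlike Hspb1 and Hspa1a, it had both fetal samples above both adult ones. The adult genotype difference was −0.51 and the fetal one 0.09.

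Hsph1, the HSP110 exchange factor HSP105, was read by 2 probes. Probe A_55_P2176963 read 5.41 and 5.33 in wild-type adults, 4.69 and 4.67 in knockout adults, 4.42 and 4.48 in wild-type fetuses and 4.46 and 4.48 in knockout fetuses. Probe A_55_P2003513 read 4.34 and 4.28, then 3.46 and 3.43, then 3.29 and 3.32, then 3.35 and 3.33 in the same order of samples. Both showed adult wild type above the other 3 samples and adult knockout only slightly above the fetal pools. The adult differences were −0.69 and −0.87, and both fetal differences were 0.03.

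Hsp90aa1, the inducible HSP90, read 6.49 and 6.37 in adult wild type and 5.75 and 5.64 in adult knockout. The fetal pools read 7.05 and 6.99 for wild type and 6.99 and 6.95 for knockout. The fetal samples overlapped and lay above both adult samples. Its adult genotype difference was −0.74 and its fetal one −0.05.

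The constitutive chaperones were lower in adult knockout by amounts within the range of the inducible ones. Hsp90ab1, the constitutive HSP90, read 8.91 and 8.88 in wild-type adults, 8.12 and 8.12 in knockout adults, 8.22 and 8.17 in wild-type fetuses and 8.31 and 8.26 in knockout fetuses. Adult wild type stood above the other 3 samples. The adult difference was −0.78 and the fetal one 0.09.

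Hspa8, the constitutive HSC70, was read by 3 probes. The brightest, A_55_P2080603, read 8.44 and 8.50 in wild-type adults, 7.93 and 7.91 in knockout adults, 7.24 and 7.38 in wild-type fetuses and 7.47 and 7.48 in knockout fetuses. Probe A_55_P2069721 read 7.95 and 7.95, 7.13 and 7.14, 7.15 and 7.30, and 7.24 and 7.26 in that order. Probe A_52_P12877 read 5.45 and 5.40, 5.30 and 5.35, 5.72 and 5.76, and 5.14 and 5.08. The first 2 probes place adult wild type highest, whereas the third places fetal wild type highest and fetal knockout lowest. Their adult genotype differences were −0.55, −0.81 and −0.10, and their fetal ones 0.17, 0.02 and −0.63. The spread of 0.80 between probes in the fetal comparison was exceeded by 0.903% of the 2326 genes with several probes, whose median spread was 0.15. Which transcripts the third probe reads was not tested. Without scaling its adult difference was 0.25, the only member probe whose adult sign turned in that setting.

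The mitochondrial chaperonin moved alike. Hspd1, which forms the HSP60 ring, read 7.33 and 7.28 in wild-type adults, 6.67 and 6.67 in knockout adults, 6.71 and 6.71 in wild-type fetuses and 6.62 and 6.61 in knockout fetuses. Its adult difference was −0.64 and its fetal one −0.10. Hspe1, the HSP10 lid, had 3 probes, and its brightest, A_66_P124952, read 6.77 and 6.68 in wild-type adults, 5.96 and 5.94 in knockout adults, 6.65 and 6.67 in wild-type fetuses and 6.68 and 6.67 in knockout fetuses. On this probe adult knockout stood alone at the bottom, while adult wild type stood alone at the top for Hspd1. Probe A_55_P2089358 read 6.31 and 6.21, 5.41 and 5.20, 6.15 and 6.18, and 6.20 and 6.20 in that order. Probe A_55_P1953063 read 2.89 and 2.94, 2.39 and 2.37, 2.56 and 2.45, and 2.56 and 2.57, with adult wild type highest. The adult differences of the 3 Hspe1 probes were −0.78, −0.96 and −0.53, and the fetal ones 0.01, 0.04 and 0.06.

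By class, the adult medians were −0.74 for the 5 measured inducible genes, −0.66 for the 2 constitutive genes and −0.71 for the 2 mitochondrial genes. Both called genes were inducible. Of the other 3 inducible genes, Hsph1 (−0.69) and Hsp90aa1 (−0.74) lay within the range of the constitutive and mitochondrial ones (−0.55 to −0.78), and Dnajb1 (−0.51) lay closer to 0. In the fetal pools the class medians were 0.03, 0.13 and −0.04, and the median over the 9 was 0.03 beside 0.02 over all genes. No member was called there, where 2.04% of genes were called lower and 0.796% higher. The largest fetal difference by gene was the 0.40 of Hspb1.

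**Figure D2:**
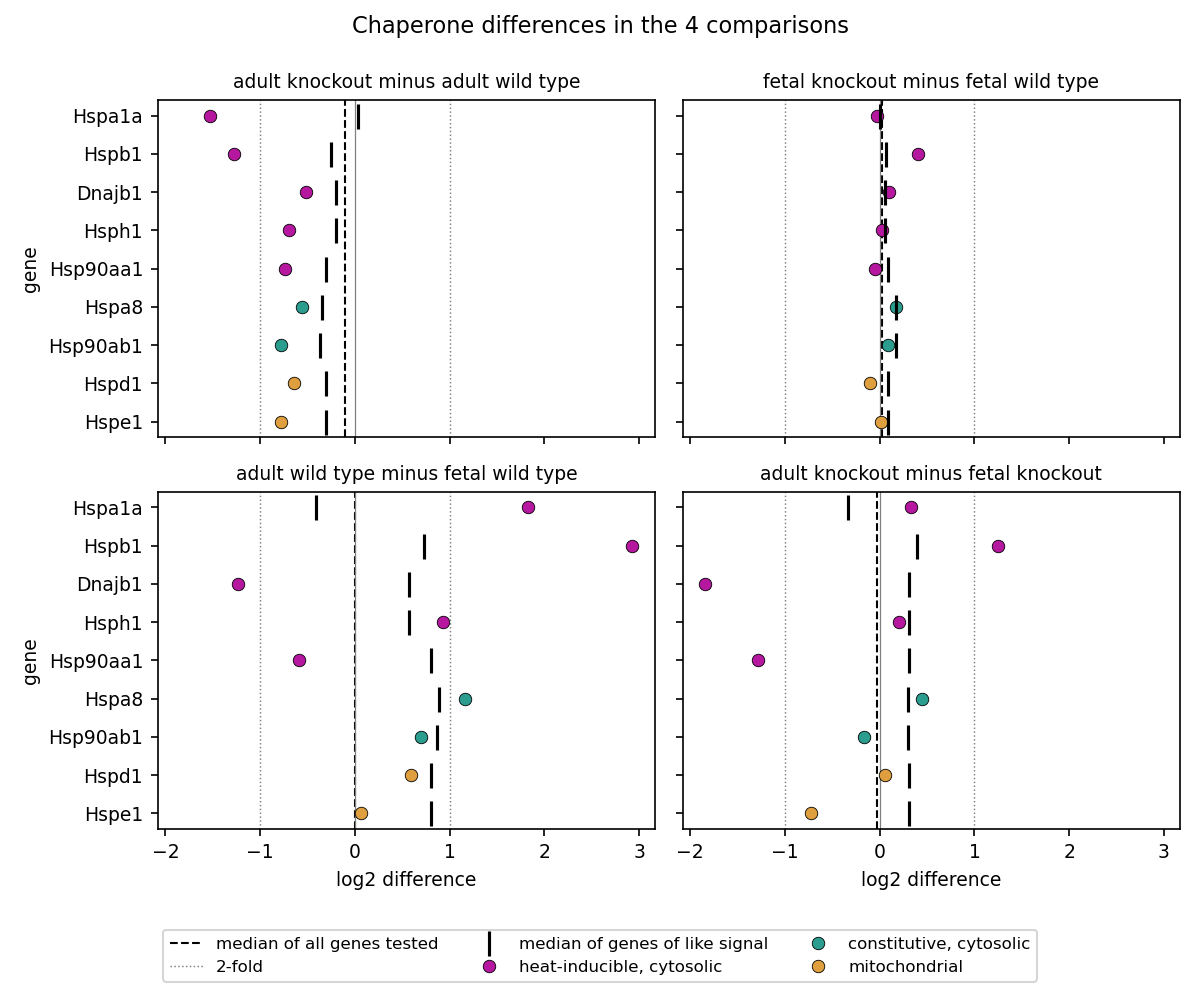
Log2 difference of the 9 measured chaperones in 4 comparisons, 1 point per gene from its brightest probe and coloured by class. The dashed line is the median of all 14578 genes, the short bar the median of genes of like signal, and the dotted lines 2-fold. In the adult genotype panel all 9 lie left of their bars; in the fetal genotype panel they lie between −0.10 and 0.40. The 2 panels of stage spread to both sides.

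The adult difference of an average gene depended on its signal. With scaling to the 75th percentile, the median over genes went from 0.01 at levels of 0 to 1 to −0.20 at levels of 4 to 5, −0.30 at 6 to 7 and −0.37 at 8 and above. Of the 9 chaperones, 8 have levels above 4, where other genes also lay below 0. Set against the median of its own level class, each of the 9 was still lower, by 0.20 for Hspa8 to 1.56 for Hspa1a, with a median of −0.44. Quantile normalization brought the class medians above level 4 to between −0.10 and −0.02, and the 9 chaperones then had a median of −0.52, each again below its class median. In the fetal genotype comparison 6 of the 9 lay below their class medians, by a median over the 9 of −0.04.

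**Figure D3:**
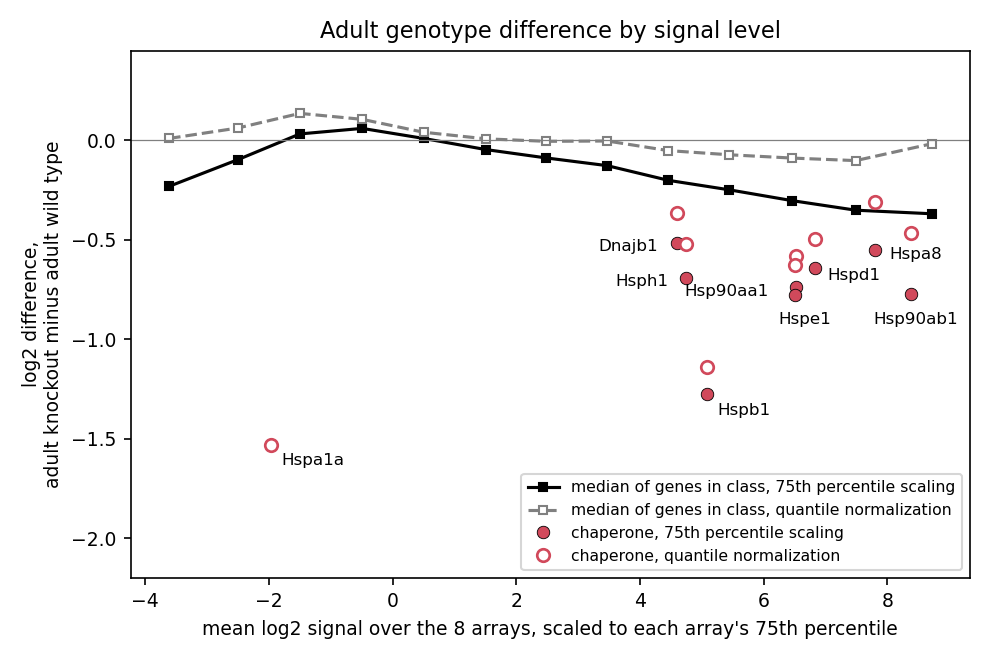
Adult knockout minus wild type (log2, vertical axis) against mean scaled log2 signal over the 8 arrays (horizontal axis). Squares joined by lines are medians of genes in classes of signal, filled for scaling to the 75th percentile and open for quantile normalization; circles are the 9 chaperones under the same settings. Under both settings every chaperone lies below the line of its setting, and at Hspa1a the circles coincide.

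Between stages the chaperones divided. The adults were fasted males, while the fetal pools held both sexes. Summed scaled signal of 12 erythroid markers was 467 to 471 in wild-type adults and 3732 to 4011 in wild-type fetuses. It was 561 to 566 in knockout adults and 4718 to 4752 in knockout fetuses. Stage, fasting, sex and cell content cannot be told apart in these comparisons. In wild type, 3 of the 9 were called higher in the adult than in the fetal sample, Hspb1 by 2.93 (7.61-fold), Hspa1a by 1.83 (3.55-fold) and Hspa8 by 1.16 (2.24-fold), and Dnajb1 was called lower by 1.23 (2.35-fold). In this comparison 27.5% of all genes were called higher and 28% lower, so calls between stages are common. The others were Hsph1 at 0.93, Hsp90ab1 at 0.70, Hspd1 at 0.59, Hspe1 at 0.07 and Hsp90aa1 at −0.59. Inducible genes stood at both ends of that range. The call of Hspa8 is that of its brightest probe, and its other probes were at 0.72 and −0.31. The median over the 9 was 0.70, but genes above level 4 had class medians of 0.57 to 0.88, and 5 of the 9 lay below the median of their class.

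In the knockout, adult minus fetal, Hspb1 was the only member called higher (1.25, 2.38-fold), and Dnajb1 (−1.84, 3.59-fold) and Hsp90aa1 (−1.28, 2.43-fold) were called lower. Among all genes, 26% were called higher and 27.9% lower. The call of Hspb1 does not hold under all settings: it was 0.89 with quantile normalization and 0.71 with scaling to the median, while Hspe1, at −0.72 here, was −1.06 and −1.27. The median over the 9 was 0.05. The 2 stage comparisons share no sample. By its brightest probe, each member's value was lower in the knockout comparison than in wild type. For the 9 genes this is the same statement as the difference of the adult and fetal genotype differences, which was below 0 for all 9 with a median of −0.72, where 57% of all genes were below 0 and their median was −0.10. It passed 2-fold for Hspb1 (−1.68) and Hspa1a (−1.50), against 5.15% of genes on that side. With no scaling, 8 of the 9 were below 0 and Hspd1 was at 0.06. With the scaling used, Hspa8 probe A_52_P12877 went the other way, at −0.31 in wild type, 0.21 in the knockout and 0.52 for the difference. The other member probes that were not the brightest of their gene lay below 0 in that difference. The difference of the genotype differences has no test.

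The stage values depend on how adult and fetal arrays are put on a scale. Scaling to the median in place of the 75th percentile moved the median of all genes in the wild-type stage comparison from −0.003 to −0.72, and that of the members from 0.70 to −0.01. Hspb1, Hspa1a and Hspa8 kept a value above 0 and Dnajb1 and Hsp90aa1 a value below 0 in wild type under all 12 other settings tried, while Hspe1 changed sign under 5 of 12 and Hspd1 and Hsp90ab1 under 1 of 12. In the knockout stage comparison, Hspd1 and Hsph1 changed sign under 5 of 12 and Hspa1a and Hspa8 under 1 of 12. Not all of the 12 settings are separate checks. Changing the filter on dim probes left the member values as they were, and averaging probes did so for genes with 1 probe. The deposited value table gave nearly the values of quantile normalization. With no scaling, an alternative outside those 12, only Hspb1 (1.62) and Hspa1a (0.52) stayed above 0 in the wild-type stage comparison. Hspa8 (−0.15), Hsph1 (−0.38), Hsp90ab1 (−0.61), Hspd1 (−0.72) and Hspe1 (−1.24) lay below 0 there, and the median over the 9 was −0.61. The call of Hspa8 rests on its brightest probe and on the scaling used here: that probe was at 0.66 with quantile normalization and 0.45 with scaling to the median.

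Marker genes of other cells moved with the adult comparison. All 9 measured macrophage markers were called higher in adult knockout, where 5.23% of all genes were. Timd4 was not well above background in wild type. The summed scaled signal of the 9 was 43.1 to 45.6 in wild type and 274 to 279 in knockout. In the fetal pools that sum was 77.9 to 78.1 in wild type and 98.3 to 99.2 in knockout, with no macrophage marker called. In the adult comparison 7 of 8 hepatocyte markers lay below 0, beside 58.6% of all genes, and none was called. Their median was −0.17, or −0.22 to 0.17 under the alternatives, so its sign depends on the setting. In bulk liver, fewer cells of a type and less RNA per cell cannot be told apart. Of 8 stellate cell and fibroblast markers, Acta2 (1.71), Col3a1 (1.66) and Col1a1 (1.12) were called higher in adult knockout and the median was 0.73, while the list's summed signal was 119 to 122 in wild type and 94.6 to 100 in knockout. Of 7 endothelial markers Tek (1.23) was called higher, the median was 0.71 and the sum was 74.1 to 75.5 in wild type and 96.4 to 103 in knockout. The sum over 12 erythroid markers was 467 to 471 in wild type and 561 to 566 in knockout. Bile duct and hepatoblast markers were dim in both adult samples, with sums of 0.60 to 2.13. The part of these marker differences in the chaperone values was not tested.

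The other genes of the chaperone network were read from lists. Of 16 further HSF1 targets, none was called in the adult genotype comparison. Below 0 lay 13 of them, beside 58.6% of all genes, and the median was −0.39. The lowest was Bag3, a cochaperone that couples HSP70 to autophagy, at −0.99, followed by the HSP organizing protein Stip1 at −0.56 and the HSP90 activator Ahsa1 at −0.54. Serpinh1, the collagen chaperone HSP47, read 0.38 and Dnaja4 0.25. In the fetal pools the 16 had a median of 0.11, with 6 below 0 (45.7% of all genes were) and none called. Under the alternatives of scaling, background correction and probe choice the adult median of this list ran from −0.43 to −0.18. It was 0.20 to 0.34 below that of all genes, and the list was not set against genes of like signal.

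Of 20 cochaperones of HSP70 and HSP90, none was called in the adult comparison. Their median was −0.21, or −0.21 to −0.01 under the alternatives, 0.03 to 0.12 below that of all genes, and 17 lay below 0, as did 58.6% of all genes. The heat shock factors themselves were at −0.28 for Hsf1, −0.73 for Hsf2 and 0.27 for Hsf4, and their binding protein Hsbp1 was at 0.04. The CCT chaperonin of the cytosol had a median of −0.14 over 9 genes, prefoldin −0.14 over 6 and other mitochondrial chaperones and proteases −0.15 over 11, each near the −0.10 of all genes and with none called. Hspa9, the mitochondrial HSP70 that hands proteins to Hspd1, was at −0.15. In the 3 lists the medians ran to 0.06, 0.06 and 0.05 under other scalings, so their sign depends on the scaling.

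Of 14 chaperones of the endoplasmic reticulum, 2 were called higher in adult knockout, the HSP170 protein Hyou1 (1.31) and Creld2 (1.10), where 5.23% of all genes were. In all, 12 of the 14 lay above 0, beside 41.4% of all genes. Their median was 0.37, or 0.28 to 0.65 under the alternatives. Sdf2l1 stood at 0.99, the HSP70 of this compartment, Hspa5, at 0.26 and its HSP90, Hsp90b1, at 0.07. Under normexp correction Hyou1 was at 0.52. In the fetal pools their median was 0.02 with none called.

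In the fetal genotype comparison the small heat shock proteins other than Hspb1 had the highest median of the chaperone lists. All 9, of which Hspb8 and Cryab are also on the list of HSF1 targets, lay above 0, with a median of 0.50 (0.15 to 0.53 under the alternatives), beside 54.3% of all genes above 0. Hspb7, a small heat shock protein of heart muscle, was called higher at 1.03 (0.73 to 1.06 under the alternatives). Cryab, the lens and muscle protein alpha-B crystallin, was at 0.77, Hspb3 at 0.58 and Hspb2 at 0.50. Cryaa was not above background in either fetal sample. Of 8 muscle markers, 5 were called higher in the same comparison, beside 0.796% of all genes, and 1, Acta1, lay below 0 at −0.78. The summed scaled signal of the 8 was 39.7 to 40.1 in fetal wild type and 99.4 to 102 in fetal knockout. On the adult arrays that sum was 0.73 to 2.41. The part of muscle RNA in the small heat shock protein values, the 0.40 of Hspb1 included, was not tested. The 9 CCT genes all lay below 0 in the fetal comparison, as did 45.7% of all genes, by 0.01 to 0.36 with none called. Of these, Cct6b was not above background in fetal knockout. Hspa1l, also not above background in fetal knockout, was at least 1.03-fold lower there.

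**Figure D4:**
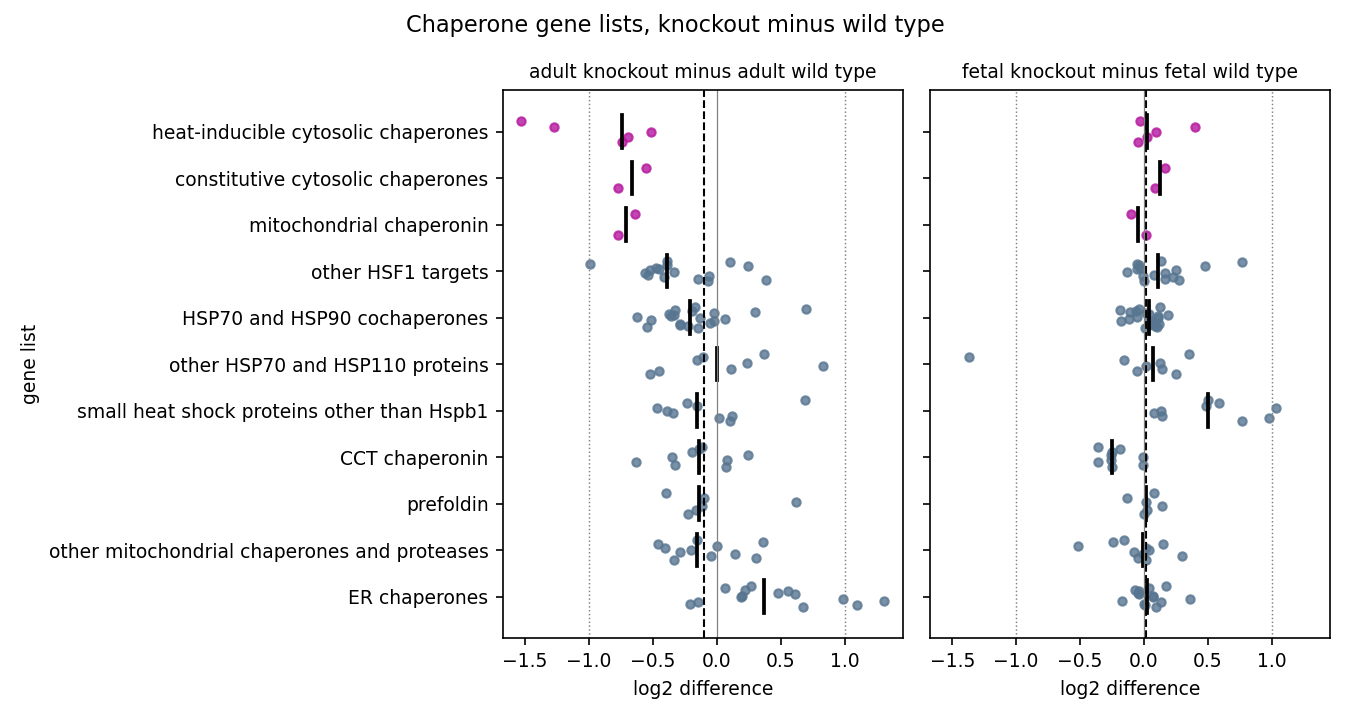
Log2 difference, knockout minus wild type, of the genes in 11 chaperone lists in the adult (left) and fetal (right) comparison; each point is 1 gene, the short bar is the list's median, the dashed line the median of all genes and the dotted lines 2-fold. In the adult panel the 3 classes of members have medians of −0.74, −0.66 and −0.71, other HSF1 targets −0.39 and chaperones of the endoplasmic reticulum 0.37. In the fetal panel most medians lie near 0, that of the small heat shock proteins at 0.50 and that of CCT at −0.25.

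Between stages, genes of the same lists differed in both directions. In wild type, Hspb8, the small heat shock protein that acts with Bag3, was 6.06 higher in the adult, beside 2.93 for Hspb1, and Bag3 was 2.25 higher, while Serpinh1 was 3.46 and Bag2 3.74 lower. In the knockout the corresponding values were 5.53, 1.31, −3.36 and −3.00. Fkbp5, an HSP90 cochaperone and glucocorticoid target, was 3.37 higher in the adult in wild type and 2.80 in the knockout. Of the CCT subunits, Tcp1 and Cct4 were called lower in adult wild type, at −1.13 and −1.29, and Cct6b, the testis-type subunit, was called higher at 3.25. Cct7 was called lower in the knockout at −1.13, where Cct6b was at least 5.43-fold higher.

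Of the 9 small heat shock proteins other than Hspb1, 4 were called higher and 4 lower in adult than in fetal liver, in wild type and in the knockout. Over all genes, 27.5% were called higher and 28% lower in wild type, and 26% and 27.9% in the knockout. Hspb6 was 2.86 higher in wild type, and Cryaa, not above background in the fetal pools, was at least 10.1-fold higher there. Hspb2, high in heart muscle, was at least 9.44-fold lower in adult than in fetal wild type and at −3.42 in the knockout. In the knockout Hspb7 was at least 4.60-fold and Hspb3 at least 2.06-fold lower. The HSF1 targets split evenly too, with 4 of 16 called in each direction in both genotypes, near those shares of all genes. They included Cacybp at −1.84 in wild type, and Cryab (−2.30) and Dnaja4 (−2.03) in the knockout.

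Chaperones of the endoplasmic reticulum were called in 1 direction between stages. Of all genes, 27.5% were called higher and 28% lower in wild type, and 26% and 27.9% in the knockout. In wild type 6 of 14 were called higher in the adult, led by the J-domain proteins Dnajc3 (2.37) and Dnajb9 (2.04), then Creld2 (1.75) and Pdia4 (1.58). In the knockout 10 were, led by Creld2 (2.84), Dnajb9 (2.68), Dnajc3 (2.49) and Hyou1 (2.33). The counts ran from 3 to 6 and from 5 to 11 under the alternatives. In wild type the list's median was 0.85, or 0.14 to 0.85 under the alternatives. Genes above level 4 had class medians of 0.57 to 0.88 there, and the list was not set against genes of like signal. Of 11 other mitochondrial chaperones and proteases, 5 were called higher and 1 lower in each genotype. Dnaja3 (2.21), the protease subunit Clpx (2.02) and Grpel2 (1.79) were higher and the protease Htra2 (−1.73) lower in wild type, with 1.78, 2.17, 2.30 and −2.07 in the knockout.

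Of the heat shock factor list, Hsf4 (2.56) and Hsbp1 (1.18) were called higher in adult wild type. In the knockout Hsf4 was at least 7.56-fold and Hsbp1 1.28 higher. Among cochaperones, Dnajb2 (1.47) and Bag4 (1.14) were called higher in wild type, and in the knockout Dnajb2 (1.15) was called higher and Dnajb6 (−1.22) lower. The HSP70 relatives Hspa12b (−2.71) and Hspa14 (−1.83) were called lower in wild type and in the knockout (−2.59 and −1.86), where Hspa13 was 1.34 higher. The prefoldin subunits Vbp1 (−2.89) and Pfdn4 (−2.21) were called lower in wild type and in the knockout (−2.29 and −2.46).

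Other stress-related genes in the adult comparison were more widely spread than the chaperones. Of 15 immediate early genes, 9 of them above background on all arrays, Egr1 (−1.66) and Jun (−1.40) were called lower, beside 3.38% of all genes. Their median was 0.22, or −0.05 to 0.42 under the alternatives, so its sign depends on the setting. Of 10 glucocorticoid-responsive genes and metallothioneins, Gadd45b (−2.90), Mt2 (−2.58) and Mt1 (−2.21) were called lower, beside the same 3.38% of all genes. The median of this list was −0.62, or −0.62 to −0.42 under the alternatives. In the fetal pools none of these 5 was called. Pck1, a gluconeogenic enzyme, was called lower in fetal knockout, where it was not above background, by at least 1.26-fold. The difference of the genotype differences passed 2-fold for Gadd45b (−3.09), Mt2 (−2.81), Mt1 (−2.38), Egr1 (−1.72) and Jun (−1.42). Of the chaperone lists it did so for Hyou1 (1.48), Creld2 (1.10), Hsf4 (1.01), Hspa1l (1.26) and Hspb7 (−1.50). Hspa1l was not above background in either adult sample or in fetal knockout, Hsf4 not in fetal knockout and Hspb7 not in adult knockout. The values of these genes thus rest in part on background signal. Under the alternatives Hspa1l ran from −0.12 to 1.44, Hsf4 from 0.07 to 1.18 and Hspb7 from −1.50 to −1.02.

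Between stages, 8 of the 10 glucocorticoid-responsive genes were called higher in adult wild type, beside 27.5% of all genes. They were led by Pck1 (13.04), the amino acid catabolic enzyme Tat (11.95) and Tsc22d3 (3.53). In the knockout 6 were called higher, beside 26% of all genes, Tat by 11.23 and Tsc22d3 by 3.66. Mt2 was called lower there at −3.78. Of the immediate early genes, Ier3 was at least 6.03-fold lower and Zfp36 at least 12.1-fold higher in adult wild type, and Myc (−2.93) and Klf6 (−1.71) were lower. In the knockout Ier3 was at least 10.0-fold lower, Zfp36 at least 7.70-fold higher, Myc at −2.75 and Fos at least 1.05-fold lower.

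Among themselves, members differed in how their 4 sample means were arranged. With each gene centred on its own mean, the closest pair by Euclidean distance was Hsp90ab1 and Hspd1 at 0.17, followed by Hsph1 and Hspd1 at 0.26 and Hsph1 and Hspa8 at 0.27. The farthest was Hspb1 and Dnajb1 at 3.67. The mean centred profile of the 5 measured inducible genes was 0.60 in wild-type adults, −0.35 in knockout adults, −0.17 in wild-type fetuses and −0.08 in knockout fetuses. Of 10599 other genes above background on all arrays, the nearest to it over these 4 samples were Atp5o (0.06), Taok3 (0.09), Ikbkg (0.11), Cmip (0.11) and Ino80 (0.14). With 4 points, nearness describes these samples only.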

How the data were processed

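The data were 8 single-colour Agilent arrays, 2 for each of 4 RNA samples. Per the labels' protocols, Trizol RNA (200 ng) was amplified and labelled with Cy3. The deposited scanner output, made with Agilent Feature Extraction 10.7.3.1 per the file headers, held the processed signal as an intensity, already background-corrected, with flags for background, saturation and outliers. The groups lay in different columns of 1 slide, so slide position and group cannot be told apart; the first arrays were in row 1 and the second in row 2. The deposited value table held linear intensities with the same median (18.1) in each column. It correlated with the processed signals at r of 0.995 to 0.999 on the log2 scale, so its scale and direction are known and its genes were not centred, while its preparation was not given in the sources used. It served as an alternative.

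Control spots were left out and outlier spots set to missing, and log2 processed signal minus the array's 75th percentile of it was averaged per probe. Of 55681 probes, 26762 were named through accessions of the RefSeq table (GRCm38.p6) and 28919 were not. A gene was tested if, in at least 1 group, a probe was well above background on each array, and its brightest such probe stood for it: 14578 of 20284 genes. Where a group was not above background, folds are bounds against the higher of its own signal and the lowest signal well above background, on each array. Array duplicates are technical, so no test between samples was made. A fit with limma 3.58.1 in R 4.3.3, which measures array error only, was an alternative, called at an adjusted p under 0.05 and 2-fold, and was tested on simulated data. The number of arrays limits precision.

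The members and lists were chosen with earlier results of these data known. Named are all members with every probe, the genes called in each list other than the markers, up to 4 by size per list and comparison, Btg2 and the 5 genes nearest the inducible profile; other list genes were named after their values were seen. The comparison with genes of like signal was also added after the data were seen. Marker lists for hepatocytes, hepatoblasts, red cells, macrophages, endothelium, stellate cells, bile ducts and muscle were summed on each array.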

Additional observations from a re-analysis of the deposited data

Results flagged for a closer look

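For 6 of the 14 chaperone probes both knockout arrays lay below both wild-type arrays in the adult and above both in the fetal pools. These opposite directions were not tested. Of all 14578 genes tested, each read by its brightest probe, 33.6% (4904) showed arrays apart in opposite directions, whichever stage was the lower. That share counts genes, not probes, and the share with the order seen here is not given. Hspb1 was at −1.28 in the adult and 0.40 in the fetus. The adult and fetal values were −0.51 and 0.09 for Dnajb1, −0.87 and 0.03 for Hsph1 probe A_55_P2003513 and −0.55 and 0.17 for Hspa8 probe A_55_P2080603. They were −0.78 and 0.09 for Hsp90ab1 and −0.96 and 0.04 for Hspe1 probe A_55_P2089358. The fetal values other than that of Hspb1 were at most 0.17. Scaled to array quantiles, the fetal value of Hsp90ab1 was −0.05. With no scaling of the arrays, the fetal values of 5 of the 6 probes lay below 0, at −0.15 for Dnajb1, −0.21 for Hsph1, −0.07 for Hspa8, −0.15 for Hsp90ab1 and −0.21 for Hspe1, and only that of Hspb1 stayed above 0 (0.16).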

How the results depend on the processing

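Of the members' values past 2-fold, 1 changed sign: Hspa8 in the wild-type stage comparison was −0.15 with unscaled processed signals, an alternative chosen after seeing the data, against 1.16. Values under 2-fold and the medians also changed sign, in that comparison unscaled for Hsph1, Hsp90ab1, Hspd1, Hspe1 and the median over the 9 (−0.61). The number of members called was 2 in the adult genotype comparison and 2 in the difference between the genotype comparisons. With normexp correction each was 1 (Hspb1), and with unscaled signals each was 1 (Hspa1a in the adult comparison, Hspb1 in the difference). All other settings, each array left out in turn included, gave counts of members called within 1.5 times the main ones, though not always of the same genes: in the knockout by stage Hspb1 dropped out and Hspe1 came in with quantile normalization. The members' adult median ran from −0.79 to −0.52 over the planned settings and was −0.38 unscaled, where the median of all genes was 0.25. In each setting 9 of 9 members lay below the median of all genes. Settings that only shift whole arrays, unscaled signals included, could not change this. In them the members' median minus that of all genes stayed at −0.64. Changing the filter on dim probes left the member values themselves as they were.

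Counts over all genes moved more. In the adult comparison 493 were lower and 763 higher; quantile normalization gave 428 and 1052, scaling to the median 313 and 1071, scaling on detected probes 362 and 969, normexp 117 and 231, genes above background on all arrays 186 and 316, unscaled signals 224 and 1429, and leaving out the first wild-type adult array 744 and 814. In the fetal comparison 297 were lower and 116 higher, normexp gave 41 and 32 and genes above background on all arrays 18 and 14. For wild type by stage, 4085 and 4016 became 6354 and 2509 with scaling to the median, 5066 and 3309 by quantiles and 2729 and 3252 by normexp; for the knockout by stage, 4063 and 3789 became 5816 and 2633, 4701 and 3367, and 2759 and 2859. Limma on the arrays called 2 members in the adult comparison and 0 in the fetal one, both without and with array number as a replicate block; over all genes it called 368 lower and 722 higher in the adult comparison without the block and 365 and 722 with it, and 208 and 73, then 203 and 70, in the fetal one. Array numbers mark the row of the slide. The cause of these changes was not tested.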
